A study of Mus musculus with 6 samples.

Results

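Aminoacyl-tRNA synthetases are the enzymes that join each amino acid to its transfer RNA. Their transcripts were followed in mouse immature dendritic cells (imDCs) with and without fluid shear stress (FSS). Members were the genes of the expression table whose symbol is an amino acid's letter followed by ars, with the endings a, b, 2 or l2, together with Eprs and Ears2. The rule gave 38 of the 18071 genes with values, and all 38 had a value in every library. Of these, 21 were counted as cytosolic and 17, whose symbols end in ars2, as mitochondrial. Tarsl2 ends in 2 but encodes a cytosolic threonyl-tRNA synthetase-like protein, and it was counted as cytosolic.

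A cell needs at least 1 synthetase for every amino acid in the cytosol, where most proteins are made, and another set in mitochondria, where the proteins encoded by mitochondrial DNA are made. Both sets are encoded in the nucleus. Most amino acids have a separate gene for each compartment, while Gars and Kars serve both. In animals several cytosolic synthetases are held together in the multisynthetase complex by scaffold proteins. Transcription of many cytosolic synthetase genes is known to respond to ATF4, the factor that the integrated stress response raises.

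The FSS group held 3 libraries of imDCs loaded with 10 dyn/cm2 for 3 h in a cone-plate device, and the static group held 3 libraries of imDCs cultured without flow. All cells came from marrow of male C57BL/6 mice aged 7 weeks, and were grown over 7 days in medium with IL-4 at 10 ng/ml and GM-CSF at 20 ng/ml. Suspended cells were then selected by CD11c, an integrin subunit. Whether marrow of several mice was pooled is not given in the sources used here. The labels carry the replicate numbers 1 to 3 in both groups and do not say whether these were separate cultures or animals, so the p-values here speak of the variation among these libraries alone, and that variation may be technical.

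Values are taken as FPKM, fragments scaled to transcript length and library size, a unit inferred from the values since the table names none. Library totals were 413898 to 439110 FPKM under FSS and 432027 to 470596 FPKM in static cells. Depth in reads is unknown. Itgax, which encodes CD11c, stood at 397 to 502 FPKM under FSS and 502 to 599 FPKM in static cells. Among the other dendritic cell markers Flt3 and Cd209a stayed at or below 0.67 FPKM in all 6 libraries, while Cd74, H2-Aa, H2-Ab1, Zbtb46, Irf4 and Ccr7 stood at 35.95 FPKM or more in each. Irf4 fell, at 106 ± 17.6 FPKM under FSS and 388 ± 55 FPKM in static cells (SD, n = 3 each; limma adjusted p = 0.0133 without the replicate number as a block). Mertk, a macrophage marker, stood at 43 ± 18.6 FPKM under FSS and 18 ± 4.93 FPKM in static cells (limma adjusted p = 0.164 without that block, 0.00166 with it). It also passed without the block when FSS replicate 3 or both libraries numbered 3 were left out. Fcgr1, another macrophage marker, fell with the block, at 3.56 ± 0.525 FPKM under FSS and 6.11 ± 1.09 FPKM in static cells (limma adjusted p = 0.00338). With the block 2 of the 6 macrophage markers rose and 1 fell, against 7.73% and 25.1% of all genes. In that fit 4 of the 7 dendritic cell markers tested fell (Itgax, Zbtb46, Irf4 and Ccr7) and 0 rose. Of the 6 neutrophil markers tested 1 fell and 0 rose. After the libraries were also scaled by their median ratio, 3 of the 7 dendritic cell markers fell and 0 rose. Itgax did not pass there (limma adjusted p = 0.495), and over all genes 16.8% fell and 19.2% rose. The Irf4 call without the block was lost when FSS replicate 1, FSS replicate 2 or static replicate 1 was left out. The summed level of 6 macrophage markers was 375 to 479 FPKM under FSS and 317 to 399 FPKM in static cells. For 7 neutrophil markers it was 248 to 417 FPKM under FSS and 282 to 505 FPKM in static cells, and for 4 basophil and mast cell markers 4.43 to 14.6 FPKM under FSS and 3.39 to 12.1 FPKM in static cells. The 9 dendritic cell markers summed to 7132 to 8734 FPKM under FSS and 8167 to 8909 FPKM in static cells. No marker of T, B or NK cells, erythroid cells or stroma reached 2 FPKM, and each of those lists summed to at most 3.03 FPKM. Of all the markers none was at 0 in every library. The part of these other cells in the results was not tested. In bulk RNA, fewer cells of a type and less RNA per cell cannot be told apart.

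Under FSS, 6 cytosolic synthetase transcripts rose in the fit that pairs libraries of the same number, namely those charging alanine (Aars), cysteine (Cars), methionine (Mars), asparagine (Nars), serine (Sars) and tyrosine (Yars), by 1.45-fold to 1.95-fold of mean FPKM. Others fell in that fit, among them Dars for aspartate (0.642-fold) and the mitochondrial Mars2 for methionine (0.477-fold). These calls rest on how the libraries are paired. Differences are FSS minus static on the log2(FPKM + 1) scale, which understates the change of low genes, and a gene passed at a limma adjusted p under 0.05 over all 10899 genes tested. All 38 members were among the genes tested, which had at least 1 FPKM in 3 or more libraries. Without the replicate number as a block none of the 38 passed, whereas 0.853% of all genes were called higher and 0.862% lower. At an unadjusted limma p under 0.05 there were 8 of 21 cytosolic and 1 of 17 mitochondrial members, against 18.1% of all genes tested.

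With the replicate number as a block, 6 of the 21 cytosolic members rose and 5 fell, and none of the 17 mitochondrial members rose and 4 fell. Over all genes tested the block called 7.73% higher and 25.1% lower. The share of cytosolic members that rose was 28.6%, and the share that fell was 23.8%. Of the mitochondrial members 23.5% fell, a share near that of all genes. In both directions together the block called 15 of the 38 members, against 32.9% of all genes, and with scaling 15, against 36%. After the libraries were also scaled by their median ratio, 9 cytosolic members rose and 2 fell, and 2 mitochondrial members rose and 2 fell, against 19.2% and 16.8% of all genes. Counted without a test, FSS was above static within all 3 numbers for 8 cytosolic and 1 mitochondrial members, against 17.1% of all genes. It was below static within all 3 for 6 and 8 members, against 47.3% of all genes. The median gene stood at -0.12 without this scaling and at 0.02 with it. The medians were 0.06 and 0.15 for cytosolic members, and -0.08 and 0.03 for mitochondrial members.

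**Figure D1:**
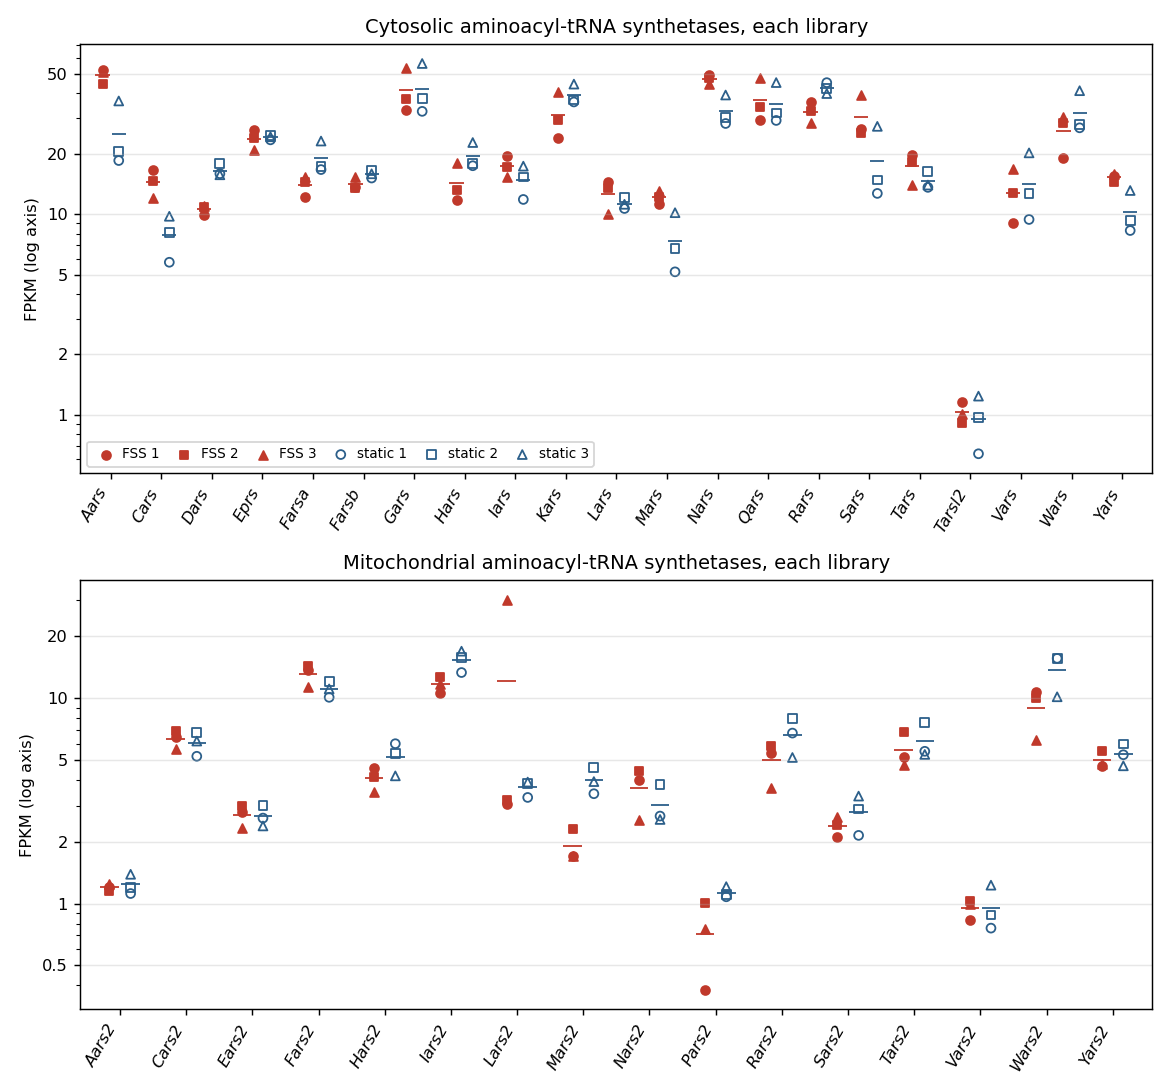
FPKM on a log axis of the 21 cytosolic (top) and 16 of the mitochondrial (bottom) synthetases. Each filled red mark is an FSS library and each open blue mark a static library, with shapes for replicate numbers and a line at the group mean (n = 3). The groups do not overlap for Aars, Cars, Mars, Nars and Yars, where FSS is above, and Lars2 stands at 30.22 FPKM in FSS replicate 3 alone.

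Aars showed the largest difference among the cytosolic members. It stood at 52.37, 44.3 and 51.13 FPKM in FSS libraries 1 to 3, and at 18.5, 20.5 and 36.65 FPKM in static libraries 1 to 3. The groups did not overlap, and static replicate 3 was the highest of the static libraries. The difference was 1.00 ± 0.26 (SE), with a limma adjusted p of 0.105 without the block and 0.00514 with it. Aars was the most abundant member under FSS by its mean, at 49.3 ± 4.35 FPKM (SD, n = 3), close to Nars at 47.1 ± 2.52 FPKM.

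Nars charges asparagine, the amino acid made by the ATF4 target Asns. It stood at 49.18, 47.93 and 44.32 FPKM under FSS and at 28.3, 30.17 and 39.24 FPKM in static cells, without overlap (limma adjusted p = 0.0175 with the block, 0.171 without). Sars, which charges serine, stood at 26.5, 25.37 and 39.3 FPKM under FSS and at 12.69, 14.8 and 27.39 FPKM in static cells. These groups overlapped, because number 3 was highest in both, yet the FSS library was higher within each number (difference 0.75, adjusted p = 0.00367 with the block, 0.247 without).

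Cars stood at 16.64, 14.64 and 12.07 FPKM under FSS and at 5.76, 8.07 and 9.76 FPKM in static cells. Yars stood at 15.55, 14.43 and 15.8 FPKM under FSS and at 8.29, 9.33 and 13.12 FPKM in static cells. Neither overlapped between groups (limma adjusted p = 0.0149 and 0.0142 with the block). Mars, the methionine enzyme that also charges the initiator tRNA, stood at 11.23, 12.15 and 13.1 FPKM under FSS and at 5.16, 6.73 and 10.17 FPKM in static cells (adjusted p = 0.00787 with the block, 0.168 without). In the RefSeq annotation the Mars gene overlaps Ddit3, which encodes the stress factor CHOP and rose 1.07 ± 0.16 (SE; limma adjusted p = 0.0271). The use of strand in counting is not given in the sources used here, so reads of the overlapping stretch cannot be told apart. Of the 38 members, 8 overlap another gene of the table in this way, namely Aars, Farsb, Hars, Mars, Wars, Hars2, Iars2 and Rars2. Hars and Hars2 overlap each other. The same limit holds for the values of all 8.

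For all 6 of these genes the difference was smallest in number 3 and largest in number 1, and static replicate 3 was the highest static library. Aars differed by 1.45, 1.08 and 0.47 in numbers 1, 2 and 3, and Nars by 0.78, 0.65 and 0.17. The median over all genes tested was -0.08, -0.07 and -0.22 in the same numbers. Without both libraries numbered 3, the same 6 passed without a block (limma adjusted p = 0.0167 for Aars and 0.0359 for Yars), and Dars and Wars2 passed as lower. That fit called 402 of all 10899 genes tested higher and 373 lower. It was chosen after the data were seen and leaves out the number in which these 6 differed least, so it gives them no separate support. No member passed in any of the 6 fits that left out 1 library.

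**Figure D2:**
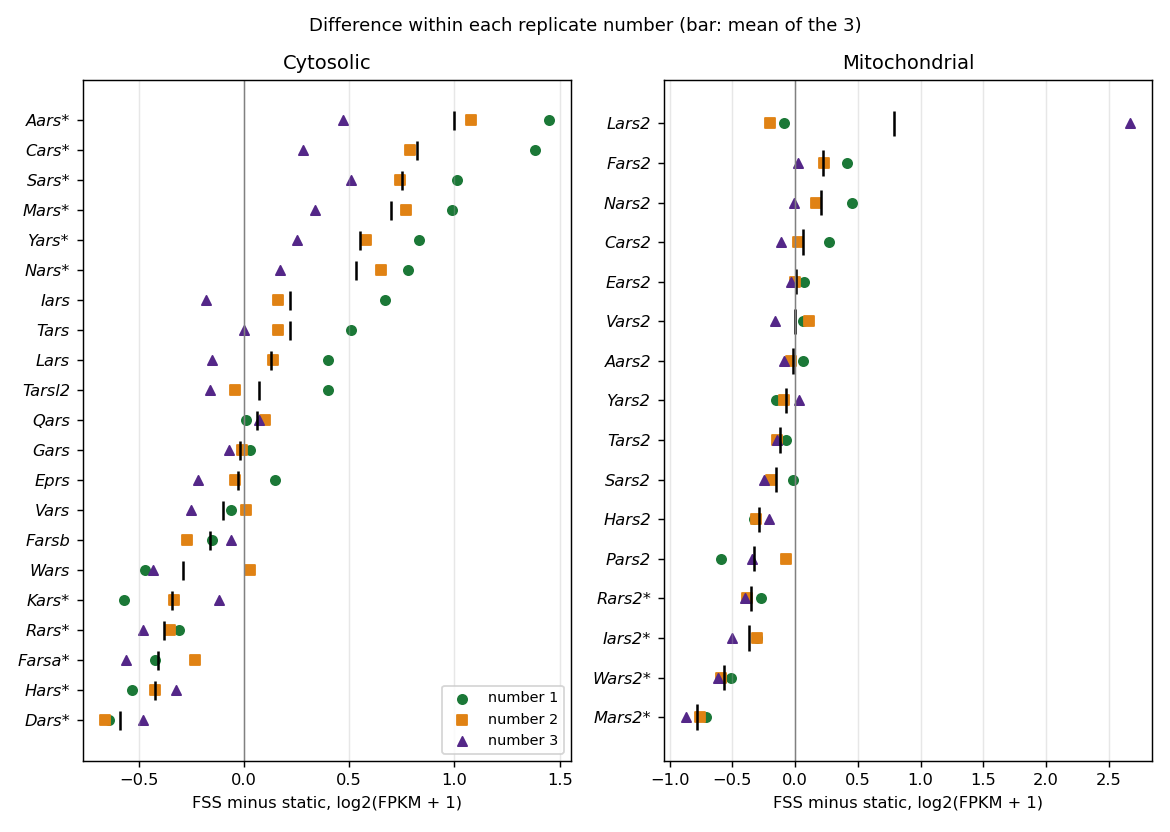
Difference between FSS and static (log2(FPKM + 1), horizontal axis) within replicate number 1 (green circles), 2 (orange squares) and 3 (purple triangles) for the same synthetases, with a black bar at the mean of the 3 and an asterisk where the limma adjusted p with the block is under 0.05. The 6 cytosolic genes at the top lie right of 0 in all 3 numbers, and Lars2 lies at 2.67 in number 3 but at -0.09 and -0.20 in numbers 1 and 2.

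The cytosolic members that fell with the block were Dars, Hars, Farsa, Rars and Kars, the enzymes for aspartate, histidine, phenylalanine (the alpha subunit), arginine and lysine. Dars stood at 9.86, 10.88 and 11.01 FPKM under FSS and at 15.91, 17.8 and 15.71 FPKM in static cells. The groups were far apart with little spread in either, and the difference was -0.59 ± 0.15 (SE; limma adjusted p = 0.0939 without the block and 0.00427 with it). Its values within the numbers, -0.64, -0.66 and -0.48, differed less than those of Aars.

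Farsa stood at 12.21, 14.53 and 15.33 FPKM under FSS and at 16.68, 17.25 and 23.14 FPKM in static cells, without overlap (adjusted p = 0.0211 with the block). Farsb, the beta subunit of the same enzyme, differed by -0.16 ± 0.15 (SE; limma adjusted p = 0.239 with the block) and did not pass. Rars stood at 36.2, 32.75 and 28.33 FPKM under FSS and at 45.22, 42.13 and 39.9 FPKM in static cells (adjusted p = 0.0163 with the block).

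Hars stood at 11.78, 13.18 and 18.09 FPKM under FSS and at 17.43, 17.96 and 22.75 FPKM in static cells. Kars stood at 24, 29.29 and 40.74 FPKM under FSS and at 36.24, 37.06 and 44.47 FPKM in static cells. Both overlapped between groups and were lower within each number (limma adjusted p = 0.0144 for Hars and 0.0474 for Kars with the block). With the block and median-ratio scaling Dars and Farsa were still lower, while Hars, Rars and Kars did not pass (adjusted p = 0.0635, 0.0621 and 0.262). That setting also called Iars, Lars and Tars higher (0.0408, 0.045 and 0.0153).

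The remaining cytosolic members were Eprs, the fused glutamate and proline enzyme, with Gars, Qars, Vars, Wars and Tarsl2. None passed with the block or with the block and the scaling. Gars stood at 33.17, 37.31 and 53.69 FPKM under FSS and at 32.53, 37.66 and 56.33 FPKM in static cells, so that the libraries of 1 number were nearly equal. Tarsl2, the lowest of the 21, stood at 1.16, 0.91 and 1.01 FPKM under FSS and at 0.64, 0.97 and 1.24 FPKM in static cells (difference 0.07 ± 0.17, SE).

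Members of the multisynthetase complex differed in direction among themselves. Of its 8 synthetases (Dars, Eprs, Iars, Kars, Lars, Mars, Qars and Rars), 1 rose with the block, 3 fell and 4 did not pass. Of the 13 cytosolic members outside it, 5 rose, 2 fell and 6 did not pass. The same fit called 7.73% of all genes higher and 25.1% lower. With the block and scaling 3 in the complex rose and 1 fell, and outside it 6 rose and 1 fell. Over all genes the shares also shifted with the scaling, to 19.2% higher and 16.8% lower. Class I enzymes, whose active site holds a nucleotide-binding Rossmann fold, gave 3 rises and 1 fall among 9 with the block and no scaling. Class II enzymes, built on another fold, gave 3 rises and 4 falls among 11 in that fit, against 7.73% and 25.1% of all genes. With the block and scaling these counts were 5 and 0 for class I and 4 and 2 for class II, against 19.2% and 16.8% of all genes. Eprs carries both and was in neither count.

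Among the scaffold genes of the complex, Eef1e1 (also named AIMP3) fell without the block. It stood at 11.03, 11.84 and 12.98 FPKM under FSS and at 21.7, 22.52 and 20.52 FPKM in static cells, without overlap (difference -0.80 ± 0.15, SE; limma adjusted p = 0.0469). It was not called after median-ratio scaling (0.0907), nor when any 1 library other than FSS replicate 3 was left out. Aimp2 fell only in fits with the block, at 8.41 ± 2.78 FPKM under FSS and 12.4 ± 3.2 FPKM in static cells (SD, n = 3 each). Its limma adjusted p was 0.00825 with the block, 0.0178 with the block and scaling, and 0.363 without the block. Aimp1 gave 13.9 ± 1.74 and 13.7 ± 0.294 FPKM (adjusted p = 0.97 with the block). Of the 9 genes listed for scaffold, editing and selenocysteine, 1 fell without the block and none rose, against 0.862% and 0.853% of all genes. With the block 2 of the 9 fell and none rose, against 25.1% and 7.73% of all genes, so the share that fell was near that of all genes.

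The proximal promoters of 5 cytosolic members held letters of the element that ATF4 binds together with C/EBP factors. The motif searched was TGATGNAA, where N is any base, on both strands of the 300 bases from 250 before to 50 after each start site. RefSeq promoters (build GRCm38.p6) were matched for 28 members, 14 of each compartment. The motif lay in 5 of the 14 cytosolic promoters (35.7%) and in 0 of the 14 mitochondrial ones. Among all 27025 genes with a RefSeq promoter 4.51% held it, and 3.25% of the 14102 with values here. The sites are shown because Aars, Gars, Iars, Tars and Yars share this core. Each is printed 5′ to 3′ on the strand of the gene with the 8 matching bases in capitals, which read as the reverse complement except in Yars.
Aars, chr8:111033841-111033868 (+ strand, motif from 10): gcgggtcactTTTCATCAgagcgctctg
Gars, chr6:55037961-55037988 (+ strand, motif from -30): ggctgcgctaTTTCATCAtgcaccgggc
Iars, chr13:49682127-49682154 (+ strand, motif from 8): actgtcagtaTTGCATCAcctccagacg
Tars, chr15:11399656-11399683 (- strand, motif from -15): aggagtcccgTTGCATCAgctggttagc
Yars, chr4:129189896-129189923 (+ strand, motif from 4): cgagctcagcTGATGCAAcccgacggga
Positions count bases from the start site, with the first transcribed base as 1. Aars and Yars rose with the block, Iars and Tars only with the block and scaling, and Gars did not pass in any of these fits. Cars, Mars, Nars and Sars also rose with the block, and no match was found for them. Promoters were at hand for 14 of the 21 cytosolic members, so a gene without a match may lack the motif or the promoter entry. The match and the response thus did not coincide in every gene. The E-box CACGTG, bound by MYC and MAX, lay in 4 of the 14 cytosolic promoters (28.6%), those of Aars, Farsb, Iars and Tars. It lay in 1 of the 14 mitochondrial ones (7.14%), that of Ears2, and in 10.2% of genes with values. The letters GAANNTTC, a pair of heat shock element units, lay in 1 of the 14 cytosolic promoters, that of Dars, in 0 of the 14 mitochondrial ones and in 7.52% of genes with values. None of these matches overlapped another. A match gives letters in this window and no evidence of binding.

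Mitochondrial members stood lower than cytosolic ones in every library. Their median was 4.02, 4.16 and 3.49 FPKM in FSS libraries 1 to 3 and 3.43, 4.62 and 3.93 FPKM in static libraries 1 to 3. The cytosolic median was 19.1, 17.3 and 16.8 FPKM under FSS and 15.9, 17.2 and 22.8 FPKM in static cells. The ratio of these medians was 4.75, 4.15 and 4.82 under FSS and 4.64, 3.73 and 5.79 in static cells, and these ranges overlapped. Among the mitochondrial genes Iars2, Fars2 and Wars2 were the most abundant when Lars2 is set aside, and Vars2, Pars2 and Aars2 were near 1 FPKM.

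Mars2, which charges the mitochondrial methionine tRNA, showed the largest fall of all members. It stood at 1.71, 2.31 and 1.7 FPKM under FSS and at 3.43, 4.62 and 3.93 FPKM in static cells. The groups did not overlap and the difference was -0.78 ± 0.17 (SE), with a limma adjusted p of 0.0667 without the block and 0.00194 with it. Within numbers 1, 2 and 3 it was -0.71, -0.76 and -0.87.

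Wars2, for tryptophan, stood at 10.68, 10.02 and 6.3 FPKM under FSS and at 15.65, 15.58 and 10.17 FPKM in static cells. Number 3 was lowest in both groups, and the FSS library was lower within each number (limma adjusted p = 0.00431 with the block, 0.28 without). Iars2, for isoleucine, stood at 10.66, 12.71 and 11.72 FPKM under FSS and at 13.35, 15.86 and 16.96 FPKM in static cells, without overlap. Rars2, for arginine, stood at 5.43, 5.88 and 3.66 FPKM under FSS and at 6.77, 7.95 and 5.15 FPKM in static cells. Iars2 and Rars2 fell with the block (limma adjusted p = 0.0249 and 0.0262) but not with the block and the scaling (0.0666 and 0.0778), whereas Mars2 and Wars2 fell in both. With the block and the scaling Fars2 and Nars2, for phenylalanine and asparagine, rose (limma adjusted p = 0.00956 and 0.0297).

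Pars2, for proline, stood at 0.38, 1.01 and 0.75 FPKM under FSS and at 1.08, 1.11 and 1.21 FPKM in static cells, without overlap. It did not pass with the block (limma adjusted p = 0.074). Aars2, Cars2, Ears2, Hars2, Sars2, Tars2, Vars2 and Yars2 passed in no fit of FSS against static, with differences of -0.29 (Hars2) to 0.06 (Cars2). Without overlap between the groups, FSS was above static in 5 cytosolic and 0 mitochondrial members and below it in 3 of each. Over all genes tested 5.1% were above and 20.4% below.

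Lars2, for leucine, stood apart in 1 library. It read 3.04, 3.21 and 30.22 FPKM in FSS libraries 1 to 3 and 3.29, 3.84 and 3.91 FPKM in static libraries 1 to 3. FSS replicate 3 was 7.73 times the next highest library. The group difference was 0.79 ± 0.71 (SE; limma adjusted p = 0.64), and it was -0.18 without FSS replicate 3. Of all genes tested, 3 stood at 4 times or more of every other library in FSS replicate 3, and in each of the other 5 libraries none did. The other two were Zc3h7a (268.8 FPKM, against 26.49 to 46.3 FPKM elsewhere) and Cmss1 (17.88 FPKM, against 0.79 to 1.72 FPKM elsewhere), which were taken up after these values were seen. Lars2 also sets the mitochondrial sum in that library, which was 96.3 FPKM with it and 66.1 FPKM without it.

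For 13 amino acids a cytosolic member was set beside a partner of the same symbol ending in 2, and the ratio of their FPKM can be read within a library. The cytosolic gene was higher in all 6 libraries for 11 of these pairs. The exceptions were Iars and Iars2, whose ratio was 0.887 and 0.965 in static libraries 1 and 2, and Lars and Lars2, whose ratio was 0.332 in FSS replicate 3.

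The methionine pair showed the widest gap between the groups. The ratio of Mars to Mars2 was 6.57, 5.26 and 7.71 under FSS and 1.5, 1.46 and 2.59 in static cells. For alanine, Aars over Aars2 was 43.3, 38.5 and 40.9 under FSS and 16.5, 17.1 and 26.4 in static cells. Aars2 itself differed by only -0.02 ± 0.14 (SE; limma adjusted p = 0.886 with the block). The ratio was higher in every FSS library than in every static one for 6 of the 13 pairs (Aars, Cars, Iars, Mars, Sars and Tars with their partners) and lower in every one for 0. These are ratios of the values given above, and no separate test was made. Aars, Cars, Mars and Sars rose and Mars2 and Iars2 fell with the block, so the count in part restates those calls. The share of other gene pairs with such a separation was not computed.

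**Figure D3:**
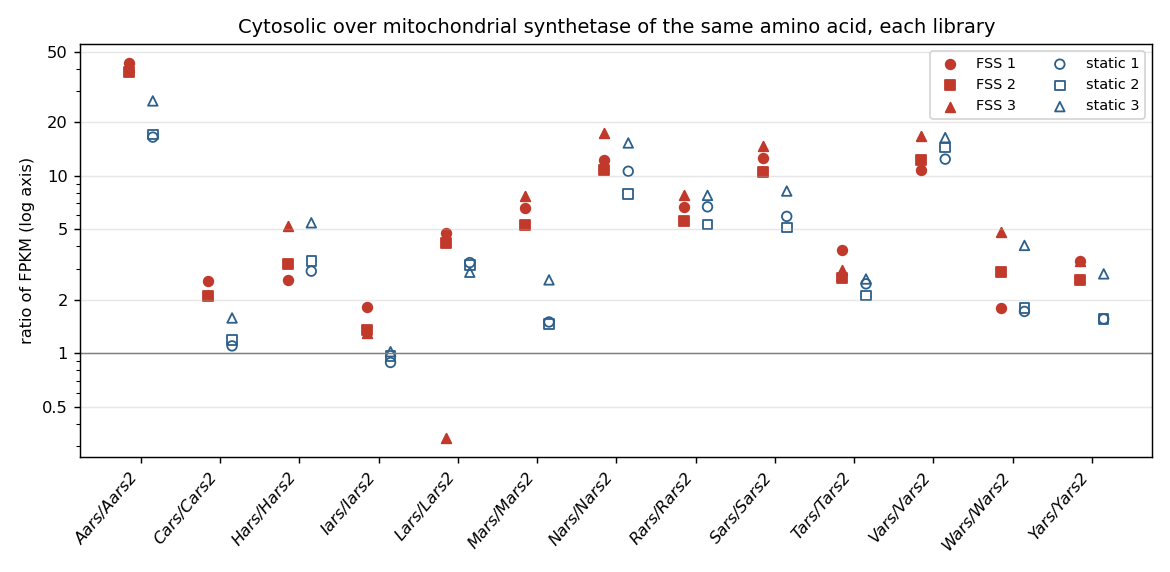
Ratio of FPKM of the cytosolic over the mitochondrial synthetase for 13 amino acids (log axis), with filled red marks for FSS and open blue marks for static libraries 1 to 3. The Mars to Mars2 ratio lies at 5.26 to 7.71 under FSS and at 1.46 to 2.59 in static cells, and the Lars to Lars2 ratio lies at 0.332 in FSS replicate 3.

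The libraries of the 3 replicate numbers differed in 11 members. With the group in the model, an F test over the 3 numbers called 7 cytosolic members (Gars, Hars, Kars, Qars, Sars, Vars and Wars) and 4 mitochondrial ones (Nars2, Rars2, Tars2 and Wars2), against 49.7% of all genes tested (limma, Benjamini-Hochberg). The members' shares, 33.3% and 23.5%, were below that background. The 7 cytosolic genes had their highest mean in number 3, and the 4 mitochondrial genes had their lowest there. Over all members, 15 of 21 cytosolic genes were highest in number 3 (71.4%), as were 5 of 17 mitochondrial genes (29.4%) and 33.5% of all genes tested. Lowest in number 3 were 4 of 21 cytosolic genes (19%), 8 of 17 mitochondrial genes (47.1%) and 52.9% of all genes tested. Of the 5414 genes called, 1878 were highest in number 3 and 3245 lowest, so the direction of the mitochondrial genes was the commoner one.

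Vars, for valine, showed the smallest adjusted p among them. It stood at 9, 12.7 and 16.81 FPKM in FSS libraries 1 to 3 and at 9.41, 12.63 and 20.2 FPKM in static libraries 1 to 3 (limma F test, adjusted p = 0.00332). Its 2 libraries of each number lay closer to each other than to those of another number, and the FSS difference was -0.10 ± 0.31 (SE). What the libraries of a number share is not in the labels.

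**Figure D4:**
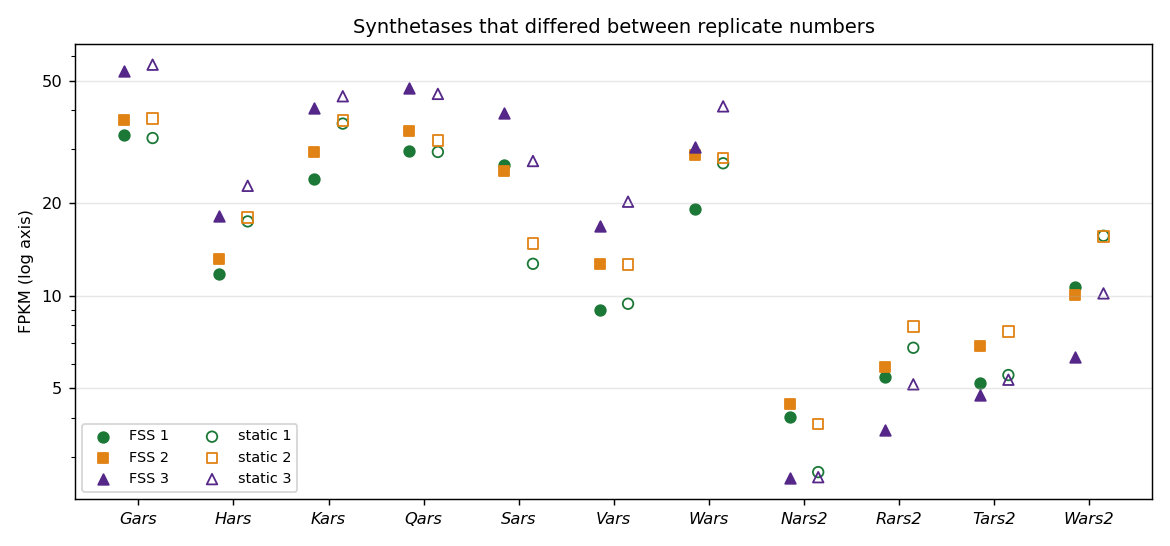
FPKM (log axis) of the 11 synthetases called by the F test over replicate numbers, with filled marks for FSS and open marks for static libraries and a colour for each number. Number 3 (purple triangles) is highest by its mean for the 7 cytosolic genes, where Gars reads 53.69 and 56.33 FPKM, and lowest for the 4 mitochondrial genes. It is also lowest for 3245 of all 5414 genes called by this test.

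Of 16 companions under ATF4 control or in amino acid supply, 4 rose and none fell without the block, against 0.853% and 0.862% of all genes. They were Chac1, which degrades glutathione, Ddit3, Mthfd2, a mitochondrial folate enzyme (46.9 ± 7.43 FPKM under FSS and 23.5 ± 0.972 FPKM in static cells, SD, n = 3 each), and Trib3, a pseudokinase. With the block 8 rose and 1 fell, against 7.73% and 25.1% of all genes. With the block and scaling 11 rose and 1 fell, against 19.2% and 16.8% of all genes. Atf4 itself stood at 175.38, 154.79 and 167.14 FPKM under FSS and at 75, 81.85 and 104.65 FPKM in static cells (limma adjusted p = 0.0506 without the block and 0.00176 with it). The member that fell was Slc7a5, a transporter of large neutral amino acids, at 7.76, 10.92 and 16.67 FPKM under FSS and at 17.27, 20.17 and 37.01 FPKM in static cells (adjusted p = 0.00104 with the block, 0.179 without). When single libraries were left out, Chac1 was called in 5 of 6 such fits and not without static replicate 1. Trib3 was called in 2, those without a library numbered 3, and it missed the threshold after median-ratio scaling (adjusted p = 0.0565), and Ddit3 and Mthfd2 only without FSS replicate 3.

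Of 12 genes of mitochondrial charging and tRNA processing, Elac2, the nuclease that trims the 3′ ends of tRNA precursors, fell without the block. None of the others was called, against 0.862% of all genes lower and 0.853% higher. Elac2 stood at 4.91, 5.13 and 5.56 FPKM under FSS and at 10.16, 9.36 and 11.64 FPKM in static cells (difference -0.87 ± 0.15, SE; limma adjusted p = 0.0423). It was not called after median-ratio scaling alone (0.0748). Among fits that left out 1 library, it was called only without FSS replicate 3. With the block Elac2, Gatc and Pus1 fell and none of the 12 rose, against 25.1% and 7.73% of all genes. With the block and scaling Elac2 fell and Gatb, a subunit of the mitochondrial amidotransferase, rose (limma adjusted p = 0.0173), while Gatc and Pus1 did not pass (0.06 and 0.133). The shares of all genes in that setting were 16.8% lower and 19.2% higher. Of 9 genes of tRNA export and RNA polymerase III, which transcribes tRNA genes, none passed without the block on all 6 libraries as deposited, and 3 stood at an unadjusted limma p under 0.05, against 18.1% of all genes. Polr3d did pass without the block after median-ratio scaling (limma adjusted p = 0.0426), without both libraries numbered 3 (0.038) and without FSS replicate 3. With the block and no scaling the subunit genes Polr3a, Polr3b and Polr3d fell and none of the 9 rose, against 25.1% and 7.73% of all genes. Polr3d was the furthest apart (5.14 ± 0.602 FPKM under FSS and 9.63 ± 0.622 FPKM in static cells, SD, n = 3 each; limma adjusted p = 0.00176 with the block). Polr3b did not pass with the block and scaling (0.0909). Of 5 cytosolic elongation factors, which carry charged tRNA to the ribosome or move it along, none passed without the block. With the block Eef2 (987 ± 247 FPKM under FSS and 839 ± 215 FPKM in static cells, SD, n = 3 each) and Eef1a1 rose (limma adjusted p = 0.017 and 0.0392). None of the 5 fell with it, and the shares of all genes were 7.73% higher and 25.1% lower. With the block and scaling Eef1a1 did not pass (0.0982), and Eef1b2 did (0.0262). Of 5 mitochondrial ones none passed with or without the block. At an unadjusted limma p under 0.05 without the block there were 0 of these 10, against 18.1% of all genes.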

How the data were processed

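RNA of 6 libraries was analysed, 3 FSS and 3 static, grouped by the submitters' titles. The authors deposited expression values without a unit, taken here as FPKM from the values themselves. HISAT and Bowtie2 are named in the submitters' processing notes. The quantifier is not given in the sources used here, nor are the genome build and strand setting. Of 22899 genes listed, 4828 are blank. Values move in steps of 0.01, too coarse to recover reads, so no counting interval is given.

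Genes reaching 1 FPKM in 3 or more libraries were kept (10899). FSS was compared with static on log2(FPKM + 1) by limma 3.58.1 under R 4.3.3 (variance trend, two-sided, Benjamini-Hochberg over all genes, threshold 0.05), and a moderated F test compared replicate numbers. The fit was tested on simulated data, in which libraries of the same number shared a deviation taken from these data. Of 50 genes changed 1.5-fold and 50 changed 2-fold, 0% and 28% were recovered without the block and 34% and 72% with it. A member that did not pass without the block may thus still differ by such folds. For genes changed 4-fold and 8-fold, 84% and 98% were recovered without the block and 82% and 94% with it. Because the shared deviation was put into the simulated data, the recovery with the block cannot test whether the pairing is right. Deviations from group means correlated at 0.79, 0.66 and 0.87 between libraries of numbers 1, 2 and 3. On that basis, from these data and not from the design, the numbers were treated as pairing the libraries. Members and lists were chosen with earlier results of these data known. The naming rule gave values for members called with the block (at most 10 per compartment), Tarsl2, and up to 4 genes per list by smallest adjusted p. Kars, Gars, Vars, Lars2, Pars2, Aars2, Farsb, Fars2, Nars2, Iars, Lars, Tars, Aimp1, Atf4, Slc7a5, Gatb, Irf4, Mertk and Fcgr1 fall outside it and were named after their values were seen. The values of 1 member and 1 promoter match are not reported here, though counts of members include them.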

Additional observations from a re-analysis of the deposited data

How the results depend on the processing

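Alternatives were a pseudocount of 0.1, no filter on low values, median-ratio scaling, equal totals, the replicate block, the block with scaling, each library left out and, chosen after seeing the data, both libraries numbered 3 left out. Genes called were 187 as reported. They were 21 with no filter, 113 with equal totals, 3581 with the replicate block, 3921 with the block and scaling and 775 without number 3. With 1 library left out they were 3 (without static replicate 1) to 467 (without FSS replicate 3). Cytosolic calls numbered 0 as reported, 11 with the block, 11 with the block and scaling and 7 without number 3. Mitochondrial calls numbered 0, 4, 4 and 1 in the same order. Both stayed at 0 in the 6 fits with 1 library left out, 5 of which called 35 genes or fewer in all. By replicate number, 5414 genes were called as reported and 3214 with no filter, and 11 and 5 members.

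Members whose difference changed sign were not called as reported. With median-ratio scaling, with or without the block, the values turned to 0.12 (Eprs), 0.14 (Gars), 0.05 (Vars), 0.07 (Aars2), 0.02 (Tars2) and 0.06 (Yars2). With equal totals they turned to 0.03 (Eprs), 0.05 (Gars) and 0.02 (Aars2). Without number 3 they turned to 0.06 (Eprs), 0.01 (Gars), 0.01 (Aars2) and -0.14 (Lars2). With 1 library left out the ranges were -0.11 to 0.05 (Eprs), -0.22 to 0.21 (Gars), -0.13 to 0.24 (Qars), -0.34 to 0.18 (Vars), -0.05 to 0.17 (Tarsl2), -0.06 to 0.03 (Aars2), -0.03 to 0.14 (Cars2), -0.04 to 0.09 (Ears2), -0.25 to 0.03 (Tars2), -0.07 to 0.10 (Vars2), -0.15 to 0.00 (Yars2) and -0.18 to 1.30 (Lars2). The cause was not tested. For 37 of 37 members compared a pseudocount of 0.1 or no filter kept direction and call. Depth is unknown, which limits members near 1 FPKM most.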
